A study of Homo sapiens with 4 samples.

Results

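The genes described here carry the symbols of heat shock proteins and of DNAJ proteins, the co-chaperones that bind HSP70, and a few of them encode other proteins, named where they are described. They were chosen by symbol: all rows of the deposited RNA tables whose symbol begins with HSPA, HSPB, HSPD, HSPE, HSPH, HSP90A, DNAJA, DNAJB or DNAJC followed by a letter or digit, without HSPA5, the HSP70 of the endoplasmic reticulum. The rule gave 64 rows among 13092 listed genes. RNA came from RKO, an established human colon carcinoma line, with 1 library from cells labelled HADH-S overexpression and 1 from control cells labelled WT. HADH is a mitochondrial dehydrogenase of fatty acid oxidation, and the series title speaks of a nuclear isoform. The study asked which genes HADH-S acts on in colorectal cancer cells. Nothing in the labels says which vector was used or whether the overexpressing cells were a clone or a pool. Of the colon epithelial markers EPCAM, KRT8, KRT18 and CDX2 were listed at 2.54 RPKM or more in both libraries, and CDX1, KRT20, LGALS4 and VIL1 were listed in neither. Of 6 fibroblast, 5 endothelial and 5 leukocyte markers, LUM and COL1A1 were listed, both below 1 RPKM. In bulk RNA fewer expressing cells and less RNA per cell cannot be told apart.

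Heat shock proteins are chaperones that bind unfolded or unstable proteins and release them in a foldable state. HSP70 proteins do so in a cycle driven by ATP, in which a DNAJ protein delivers the client and stimulates ATP hydrolysis and a nucleotide exchange factor opens the chaperone again. HSP90 receives partly folded clients such as kinases and receptors from HSP70, HSP60 and HSP10 form the folding chamber of mitochondria, and small heat shock proteins hold unfolded proteins in a soluble form. Under heat or other proteotoxic stress the transcription factor HSF1 binds repeats of the sequence GAA in alternating orientation, called heat shock elements, and raises transcription of part of these genes, while other members are produced at a steady rate.

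RNA levels were deposited as RPKM, reads per kilobase of transcript scaled to library size, so levels can be compared between genes. The reads behind each value were recovered from the tables, which held 6963608 reads for HADH-S cells and 6773421 for control cells. A ratio is the RPKM of HADH-S cells divided by that of control cells, with its exact 95% counting interval. A log2 value is the log2 of the same ratio after 1 RPKM was added to both levels. A gene was called higher or lower when that value corresponded to at least 1.3-fold and its mean was 1 RPKM or more. With 1 library per condition there is no test, and no difference below has a replicate check. HADH itself differed in the direction of the labels, at 54.4 RPKM in the overexpressing cells and 26.5 RPKM in control cells (ratio 2.05, 1.79 to 2.35). That value is for the gene as a whole and does not separate its isoforms.

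RNA of this chaperone system was at nearly the same level in both libraries. Of the 64 rows, 57 averaged 1 RPKM or more. Of these, 1 was called higher, HSPA12A, and 1 was called lower, DNAJC4, or 1.75% each, where 5.45% of all 10331 genes at that level were called higher and 2.06% lower. At 1.5-fold 0 members were called in either direction, where 1.47% of all genes were called higher and 0.436% lower. The same held at 2-fold, where 0.300% of all genes were called higher and 0.0484% lower. The median log2 value was -0.04 over the 57 members and 0.01 over all genes, and the members ranged from -0.44 to 0.48. The median absolute log2 value was 0.09 for members and 0.12 for all genes. Summed over all 64 rows, the level was 7832 RPKM in HADH-S cells and 8023 RPKM in control cells, a ratio of 0.976 (0.968 to 0.984).

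**Figure D1:**
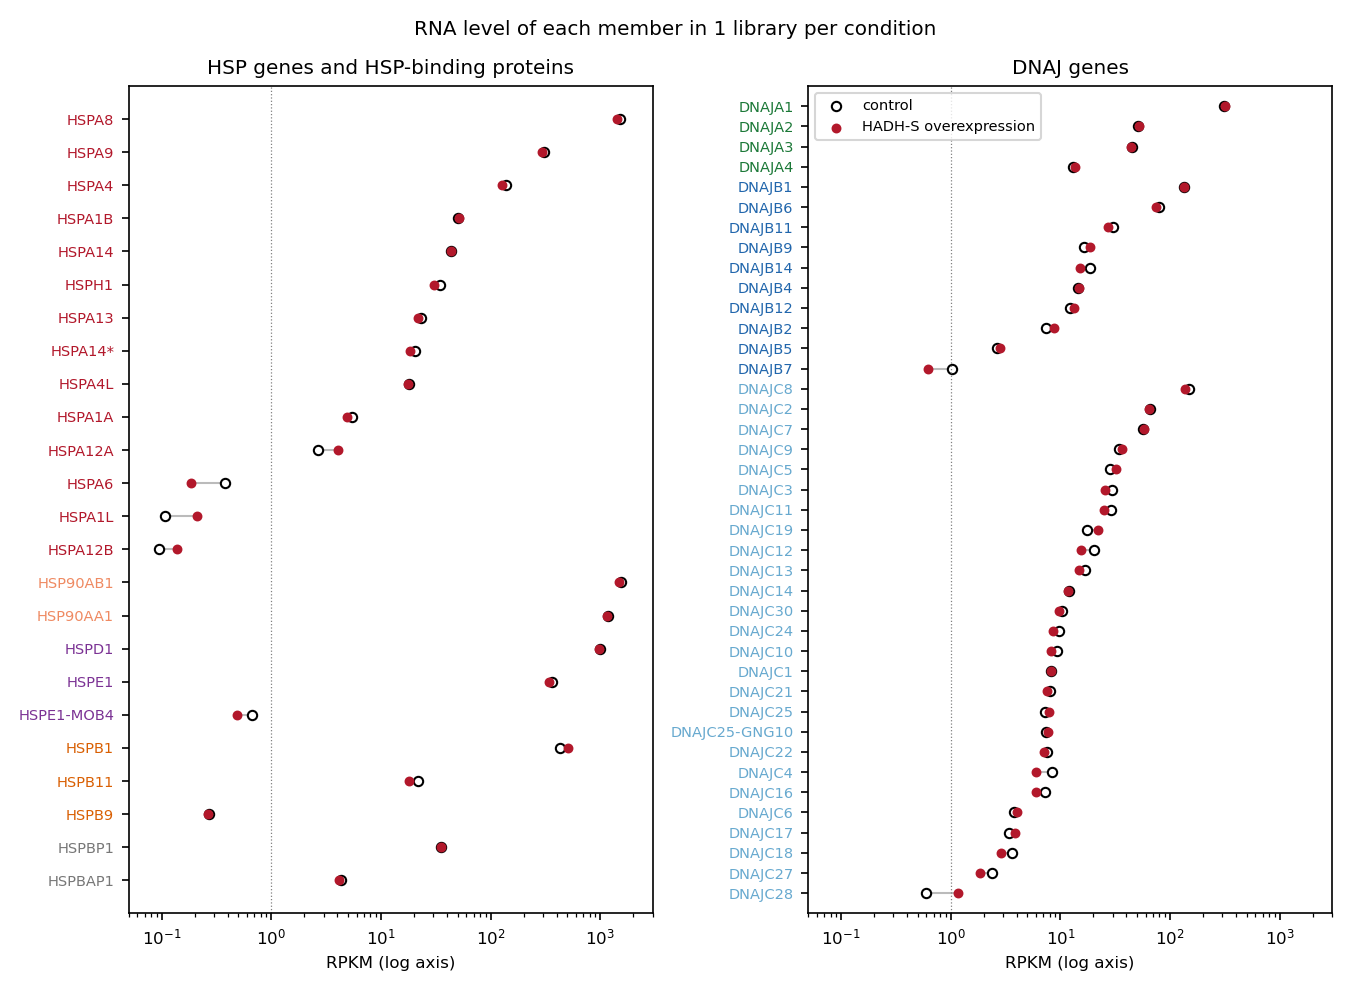
RPKM (log axis) of each of the 64 rows in the control library (open circles) and in the HADH-S library (filled circles), with gene names coloured by class and the row labelled HSPA14 that the reference names MSANTD7 marked by an asterisk. Levels run from about 0.1 to above 1000 RPKM, and the circles of a gene lie close together except for rows with few reads below 1 RPKM.

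Small differences leaned downward. The counting interval lay below 1 for 13 of the 57 members, or 22.8%, and above 1 for 4, or 7.02%, against 11.6% and 13.8% of all genes. The members were read more deeply, with a median of 1058 reads over both libraries against 570 for all genes, and a deeper gene has a narrower interval. Among the 29 members with at least 1000 reads, 12 had an interval below 1 (41.4%) and 2 had one above 1 (6.90%), where genes of that depth had 20.4% below and 16.8% above. An interval that leaves out 1 describes these libraries and says nothing about replicate cultures. Depth moved with the result, and its part was not tested beyond this comparison. A log2 value above 0 was found for 22 of the 57 members and for 52.2% of all genes, and for 8 of the 29 deeply read members and 45.5% of genes of that depth. The 13 members with an interval below 1 were HSPA8, HSPA9, HSPA4, HSPH1, HSP90AB1, HSP90AA1, DNAJB14, DNAJC8, DNAJC3, DNAJC11, DNAJC13, DNAJC10 and DNAJC16, and the 4 above 1 were HSPA12A, HSPB1, DNAJC5 and DNAJC19.

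**Figure D2:**
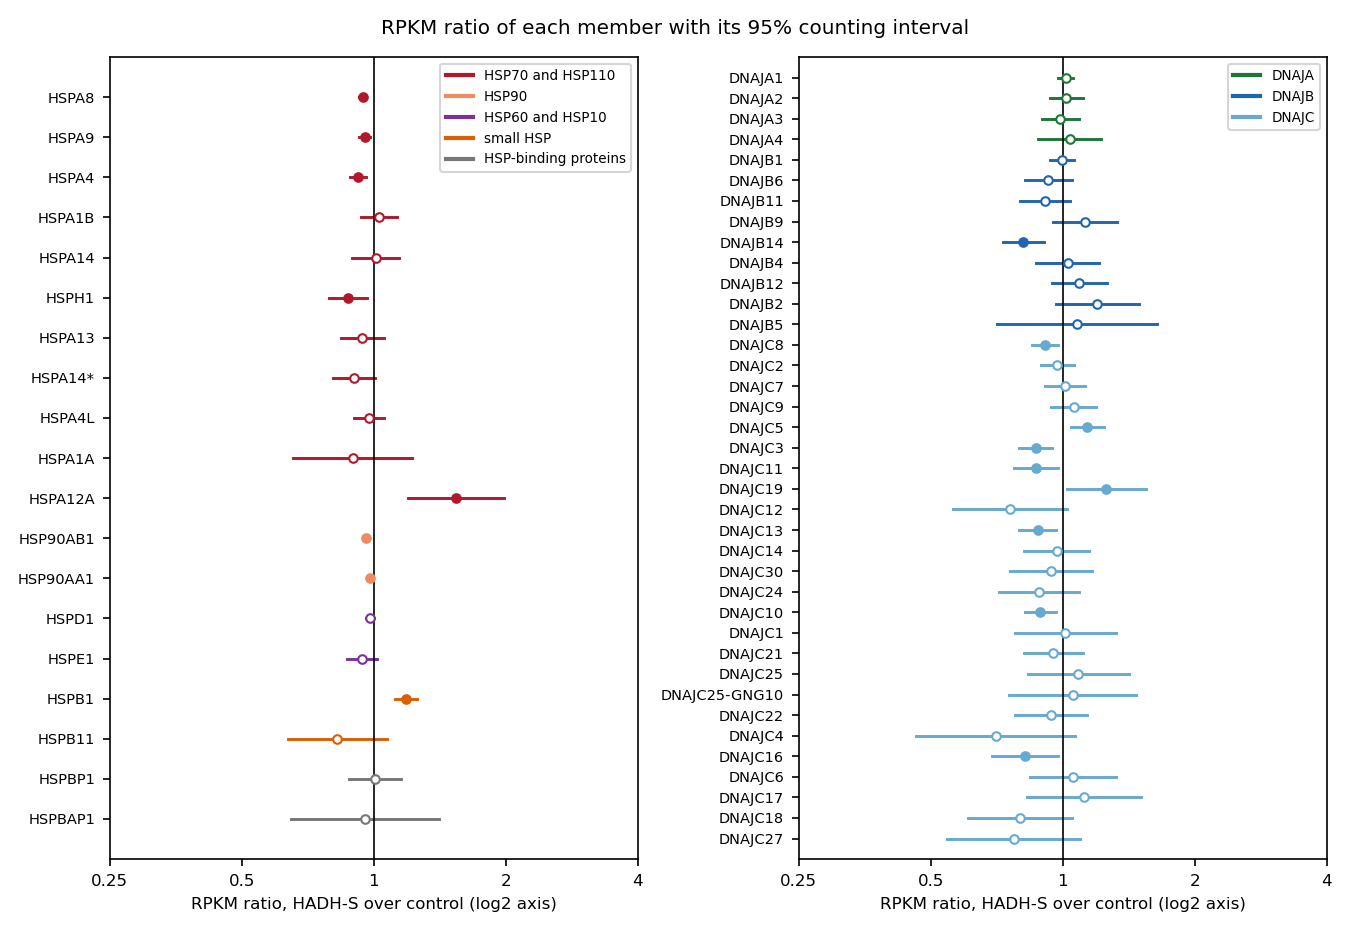
RPKM ratio of HADH-S over control (log2 axis) of the 57 members averaging 1 RPKM or more, with 95% counting intervals coloured by class and filled points where the interval leaves out 1. The 13 filled points left of the line lie at ratios between 0.813 and 0.982, and the 4 right of it between 1.14 and 1.54.

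Heat shock elements were searched in the RefSeq promoter windows (GRCh38.p14, 250 bases before to 50 after a start site), because they are the sequence through which a heat shock response would act on these genes. Windows were found for 57 of the 63 distinct member symbols. An element of 3 alternating units, GAANNTTCNNGAA or its reverse complement TTCNNGAANNTTC, was present for 7 of the 57 symbols (12.3%), whereas 0.608% of all 27305 genes, or 0.490% of their 35116 windows, held it. The 7 were HSPA8, HSP90AB1, HSP90AA1, HSPD1, DNAJB6, DNAJA1 and HSPA6. The shorter GAANNTTC, which reads the same on both strands and is contained in every element of 3 units, was present for 15 symbols (26.3%), and 8.21% of all genes, or 6.77% of windows, held it. The stretches below show these elements in capitals, on the strand of the gene and upstream of the start site of their window. They are the elements of 3 units of 6 genes and the GAANNTTC sites of HSPA1A, HSPA1B, HSPB1 and DNAJB1. Up to 30 flanking bases are given on each side, or up to 8 where the element lies within the longest annotated span of its gene, upstream of an inner start site. In the HSPD1 stretch a further unit, gaa, follows in register in lower case, so its run of units is longer than the capitals show. The element of DNAJA1 is not shown.
HSPA8 distal: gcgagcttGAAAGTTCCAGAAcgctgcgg
HSPA8 proximal: cgggccccTTCTGGAAGGTTCtaagatag
HSP90AB1 distal: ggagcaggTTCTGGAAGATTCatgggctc
HSP90AB1 proximal: tgagattgTTCTGGAAGCTTCtggattct
HSP90AA1: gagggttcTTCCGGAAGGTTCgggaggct
HSPD1: gcattTTCTGGAAAGTTCtggaaccg
DNAJB6: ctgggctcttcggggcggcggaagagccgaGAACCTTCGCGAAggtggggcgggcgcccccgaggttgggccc
HSPA6: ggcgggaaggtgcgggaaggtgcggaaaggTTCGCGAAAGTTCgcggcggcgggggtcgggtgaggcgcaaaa
HSPA1A: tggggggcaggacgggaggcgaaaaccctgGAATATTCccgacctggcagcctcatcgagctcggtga
HSPA1B: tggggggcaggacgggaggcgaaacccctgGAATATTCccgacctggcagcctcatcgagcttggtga
HSPB1: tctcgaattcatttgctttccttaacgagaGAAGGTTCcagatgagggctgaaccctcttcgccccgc
DNAJB1 distal: gcggggcgGAAGGTTCtggagggg
DNAJB1 proximal: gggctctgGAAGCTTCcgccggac

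The HSPA8 stretches lie at chr11:123062346-123062374 and chr11:123062171-123062199 on the minus strand, and the HSP90AB1 stretches at chr6:44247770-44247798 and chr6:44247823-44247851 on the plus strand. The HSP90AA1 stretch lies at chr14:102087112-102087140 (minus), that of HSPD1 at chr2:197500065-197500090 (minus), that of DNAJB6 at chr7:157336843-157336915 (plus) and that of HSPA6 at chr1:161524436-161524508 (plus). The HSPA1A and HSPA1B stretches lie at chr6:31815407-31815474 and chr6:31827603-31827670 (plus), that of HSPB1 at chr7:76302461-76302528 (plus), and the DNAJB1 stretches at chr19:14518459-14518482 and chr19:14518429-14518452 (minus). A match is a description of the letters and does not show that HSF1 binds there. Of the 7 genes with an element of 3 units, 6 averaged 1 RPKM or more, and their log2 values ran from -0.11 for DNAJB6 to 0.02 for DNAJA1, with a median of -0.04. The 15 genes above that limit with an element of 2 or 3 units, GAANNTTC or TTCNNGAA, had values between -0.13 and 0.25 and none was called. The 36 genes with a window and without such an element held the member called higher, HSPA12A, and the member called lower, DNAJC4, whose interval included 1. Without an element means that no exact match was found within the window. None was found for HSPH1 and HSPE1 either, which are on the list of classical HSF1 targets used below. Over all genes 5.45% were called higher and 2.06% lower, and 15 genes can hold 0 calls at those shares. The split of these calls between genes with and without an element was not tested.

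HSP70 and HSP110 proteins formed the class with the second highest summed level, 2035 RPKM in HADH-S cells and 2151 RPKM in control cells, a ratio of 0.946 (0.933 to 0.960). HSPA8 (HSC70), the constitutive cytosolic HSP70 that folds new proteins and uncoats clathrin vesicles, made up most of it at 1425 RPKM in HADH-S cells and 1511 RPKM in control cells (ratio 0.943, 0.926 to 0.960, from 22878 and 23596 reads). Without HSPA8 the class had a ratio of 0.953 (0.932 to 0.974). HSPA9 (mortalin), the HSP70 of mitochondria that pulls in imported proteins, was at 291 RPKM in HADH-S cells and 305 RPKM in control cells (ratio 0.954, 0.927 to 0.982). HSP110 proteins are relatives of HSP70 that act as its nucleotide exchange factors. Among them HSPA4 was at 126 against 137 RPKM (ratio 0.922, 0.884 to 0.962), and HSPH1, the heat-inducible one, at 30.3 against 34.7 RPKM (ratio 0.873, 0.790 to 0.964). HSPA4L was at 17.6 against 18.0 RPKM, with an interval that included 1. Thus 4 of the 11 rows of the class averaging 1 RPKM or more had an interval below 1, the lowest ratio being 0.873 for HSPH1. That is 36.4%, against 11.6% of all genes, and 1 row had an interval above 1 (9.09%, against 13.8%). Among the 9 rows with at least 1000 reads, 44.4% lay below 1 and 0 above, where genes of that depth had 20.4% and 16.8%. The 11 rows include the one that the reference names MSANTD7.

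The inducible HSP70 genes, which a heat shock response raises most, had intervals that included 1. HSPA1B was at 51.4 RPKM in HADH-S cells and 50.1 RPKM in control cells (ratio 1.03, 0.933 to 1.13). Its neighbour HSPA1A was at 4.85 against 5.41 RPKM (ratio 0.895, 0.654 to 1.22). The copies stand side by side on chromosome 6, from 31815543 to 31817942 and from 31827738 to 31830254, encode nearly identical RNAs and share 93.6% of the 250 bases upstream, so the division of reads between them is uncertain. Their reads added up to 982 for HADH-S cells and 942 for control cells, a ratio of 1.01 (0.926 to 1.11). HSPA6, which is made almost only under strong stress, had 3 reads in HADH-S cells and 6 in control cells. HSPA8 exceeded HSPA1B 27.7-fold with HADH-S and 30.2-fold in the control.

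HSPA12A, a distant HSP70 relative with a divergent ATPase domain, was the single member called higher, a call that was lost with a pseudocount of 5 RPKM (log2 value 0.25) and that a filter at a mean of 5 RPKM leaves out. It was at 4.08 RPKM in HADH-S cells and 2.65 RPKM in control cells, from 166 and 105 reads, a ratio of 1.54 (1.20 to 1.98) and a log2 value of 0.48. The gene spans chr10:116671192-116850747 and overlaps the coding gene ENO4. Its relative HSPA12B had 3 reads against 2, and the germ-cell HSP70 HSPA1L had 4 against 2, too few to compare. HSPA13, an HSP70 of the endoplasmic reticulum, was at 21.8 against 23.1 RPKM (ratio 0.943, 0.841 to 1.06). HSPA14, an HSP70 that associates with ribosomes, was at 43.9 against 43.5 RPKM. A second row labelled HSPA14 carries the identifier ENSG00000284024, which the reference name table calls MSANTD7, and was at 18.6 against 20.6 RPKM with an interval that included 1.

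HSP90 was the class with the highest summed level, 2649 RPKM in HADH-S cells and 2732 RPKM in control cells, a ratio of 0.970 (0.958 to 0.981). HSP90AB1, the constitutive form, was at 1489 against 1550 RPKM (ratio 0.960, 0.944 to 0.976). HSP90AA1, the form that stress raises further, was at 1160 against 1181 RPKM (ratio 0.982, 0.966 to 0.998). Both ratios lay below 1 by a few percent, from 27717 reads or more per gene and library. The interval of HSP90AA1 ended at 0.998, just short of 1. The constitutive form exceeded the inducible one 1.28-fold with HADH-S and 1.31-fold in the control.

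HSPD1 and HSPE1 encode HSP60 and its lid HSP10, and their starts are separated by 104 bases on chromosome 2, in opposite directions. HSPD1 was at 979.9 RPKM in HADH-S cells and 999.8 RPKM in control cells (ratio 0.980, 0.959 to 1.00). HSPE1 was at 338 against 359 RPKM (ratio 0.940, 0.871 to 1.02). Both intervals included 1. The readthrough gene HSPE1-MOB4, which begins at the start of HSPE1, had 3 reads against 4.

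Among small heat shock proteins, HSPB1 (HSP27) had the ratio farthest from 1 among members averaging above 100 RPKM. It was at 507 RPKM in HADH-S cells and 428 RPKM in control cells, from 2745 and 2252 reads, a ratio of 1.19 (1.12 to 1.25) and a log2 value of 0.25, below the limit for a call. HSPB1 lies at chr7:76302673-76304292 and encodes a chaperone that also guards actin filaments. It ranked 113th among all genes by RPKM in HADH-S cells and 133rd in the control. HSPB11, whose symbol in the reference is IFT25 and which encodes a subunit of intraflagellar transport and not a stress protein, was at 18.2 against 22.0 RPKM (ratio 0.826, 0.637 to 1.07). HSPB9 had 1 read in each library. The summed ratio of the class, 1.17 (1.11 to 1.23), therefore rested on HSPB1 and was 0.828 (0.645 to 1.06) without it, a value that is almost wholly that of HSPB11. Of the proteins that bind heat shock proteins and fall under the symbol rule, HSPBP1, an exchange factor of HSP70, was at 35.5 against 35.2 RPKM and HSPBAP1, which binds a small heat shock protein, at 4.09 against 4.28 RPKM.

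DNAJ proteins, the HSP40 family, carry the J domain that triggers ATP hydrolysis by HSP70. The 40 DNAJ rows summed to 1265 RPKM in HADH-S cells and 1291 RPKM in control cells, a ratio of 0.979 (0.960 to 0.999). The summed level of HSP70 and HSP110 exceeded that of all DNAJ genes 1.61-fold with HADH-S and 1.67-fold in the control.

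The 4 DNAJA genes encode the DNAJ proteins closest to the bacterial DnaJ, and all 4 intervals included 1. DNAJA1, a partner of HSPA8 and the most abundant DNAJ gene, was at 315 RPKM in HADH-S cells and 310 RPKM in control cells (ratio 1.02, 0.977 to 1.06). DNAJA2, also cytosolic, was at 52.4 against 51.4 RPKM and DNAJA3, which works with HSPA9 in mitochondria, at 44.4 against 44.9 RPKM. DNAJA4 was at 13.6 against 13.1 RPKM. Log2 values of the class ran from -0.02 to 0.05.

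DNAJB genes, of which 9 of 10 averaged 1 RPKM or more, had a median log2 value of 0.04. DNAJB1, the main stress-inducible HSP40, was at 133 RPKM in both libraries, with a ratio of 0.998 (0.938 to 1.06). DNAJB6, which keeps polyglutamine proteins from aggregating, was at 73.9 against 79.6 RPKM (ratio 0.928, 0.821 to 1.05). DNAJB14, a membrane-anchored DNAJ protein of the endoplasmic reticulum, was the 1 gene of this class whose interval left out 1, at 15.0 against 18.4 RPKM (ratio 0.813, 0.730 to 0.906). Its close relative DNAJB12 was at 13.4 against 12.3 RPKM (ratio 1.09, 0.944 to 1.26), in the other direction. DNAJB2, a neuronal DNAJ protein that directs clients to the proteasome, was at 8.82 against 7.34 RPKM (ratio 1.20, 0.968 to 1.49). DNAJB11, a partner of HSPA5, was at 27.2 against 29.9 RPKM and DNAJB9, which unfolded proteins in the endoplasmic reticulum induce, at 18.5 against 16.4 RPKM, both with intervals that included 1. DNAJB4 and DNAJB5 were at 14.8 against 14.4 RPKM and at 2.83 against 2.62 RPKM. DNAJB7, at 11 reads against 18, did not reach a mean RPKM of 1.

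DNAJC genes share little besides the J domain and serve many compartments. Of the 26 rows, 25 averaged 1 RPKM or more, with a median log2 value of -0.08. Among these, 16 log2 values were negative and 9 positive, where 52.2% of all genes had a positive one. Their summed ratio was 0.955 (0.926 to 0.985), and without DNAJC8, the most abundant one, it was 0.971 (0.938 to 1.00). DNAJC4 (chr11:64230432-64234281), the single member called lower, was at 5.94 RPKM in HADH-S cells and 8.44 RPKM in control cells. These rest on 42 and 58 reads, with a ratio of 0.704 (0.462 to 1.07), a log2 value of -0.44 and an interval that included 1. With a pseudocount of 5 RPKM the call was lost. DNAJC12, a co-chaperone of aromatic amino acid hydroxylases, lay just inside the limit at 15.3 against 20.2 RPKM (ratio 0.760, 0.562 to 1.02), from 82 and 105 reads.

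**Figure D3:**
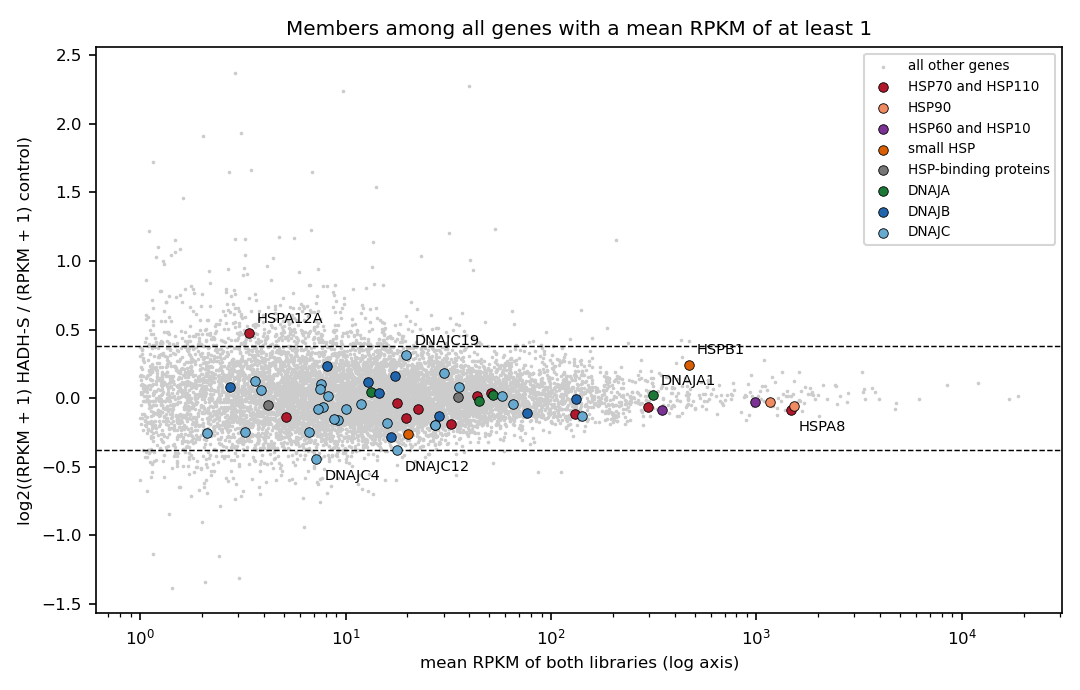
The log2((RPKM + 1) ratio) of HADH-S over control against mean RPKM (log axis) for all 10331 genes averaging 1 RPKM or more (grey) and the 57 members (coloured by class), with dashed lines at 1.3-fold. HSPA12A lies above the upper line and DNAJC4 below the lower one, while the abundant members at the right lie near 0, HSPB1 highest among them.

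By compartment, DNAJC genes of the secretory pathway were among those with intervals below 1. DNAJC3 (p58IPK), a co-chaperone of HSPA5 that also inhibits the kinase PERK, was at 25.4 against 29.3 RPKM (ratio 0.867, 0.795 to 0.946). DNAJC10 (ERdj5), a disulfide reductase of the endoplasmic reticulum, was at 8.23 against 9.25 RPKM (ratio 0.889, 0.820 to 0.964), and after removal of a trend with transcript length its log2 value was -0.04 in place of -0.15. DNAJC16, a membrane protein that is not on the list counted here, was at 5.95 against 7.24 RPKM (ratio 0.822, 0.691 to 0.975). The ratio of DNAJC1, of the membrane of the endoplasmic reticulum, was 1.01 (0.780 to 1.32), and that of DNAJC14 was 0.969 (0.818 to 1.15). On the list of 10 members of the endoplasmic reticulum, 7 had a negative log2 value and 3 a positive one. Of all genes 52.2% had a positive one. The intervals of DNAJB14, DNAJC3 and DNAJC10 lay below 1 (30.0%, against 11.6% of all genes), and 0 lay above 1 (13.8% of all genes). These 3 were among the 4 listed members with at least 1000 reads. Genes of that depth had 20.4% below 1 and 16.8% above. The part of depth in this result was not tested further. The median log2 value of the list was -0.11, and -0.06 after removal of the length trend. The membrane-bound DNAJC18 had the lowest level on this list, 2.87 against 3.59 RPKM.

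Of the 7 mitochondrial members listed, 6 had a negative log2 value and 1, DNAJC19, a positive one, where 52.2% of all genes had a positive one. Of the 7, 0 were called, where 5.45% of all genes were called higher and 2.06% lower, so that 7 genes can hold 0 calls at those shares. DNAJC4, the member called lower, was not on this list, and the count covers the listed members only. DNAJC19, which regulates the HSPA9-driven import motor at the inner membrane, was at 22.0 RPKM in HADH-S cells and 17.5 RPKM in control cells (ratio 1.26, 1.02 to 1.55, from 217 and 168 reads). DNAJC11, which belongs to the complexes that shape the inner membrane, was at 25.2 against 29.1 RPKM (ratio 0.868, 0.773 to 0.974). DNAJC30 was at 9.68 against 10.3 RPKM (ratio 0.940, 0.757 to 1.17). Over these members, with HSPA9, HSPD1 and HSPE1 among them, the median log2 value was -0.07. Of their intervals 1 lay above 1 (14.3%, against 13.8% of all genes) and 2 lay below (28.6%, against 11.6%). Among the 5 with at least 1000 reads, 0 lay above and 2 below (40.0%), where genes of that depth had 16.8% and 20.4%.

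Of the DNAJ genes of vesicle traffic, DNAJC5 and DNAJC13 went opposite ways. DNAJC5 encodes cysteine string protein, a chaperone of secretory vesicles, and was at 32.2 against 28.3 RPKM (ratio 1.14, 1.05 to 1.24). DNAJC13 encodes RME-8, which acts with HSPA8 on endosomes, and was at 14.8 against 16.9 RPKM (ratio 0.877, 0.796 to 0.966). DNAJC6, an auxilin that recruits HSPA8 to clathrin coats, and DNAJC27, a RAB-like GTPase with a J domain, were at 3.97 against 3.76 RPKM and at 1.84 against 2.38 RPKM, with intervals that included 1.

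In the nucleus and on ribosomes, DNAJC8, which is found with splicing factors, was at 136 RPKM in HADH-S cells and 149 RPKM in control cells (ratio 0.911, 0.852 to 0.975). The histone chaperone DNAJC9 was at 36.5 against 34.5 RPKM, the ribosome-associated DNAJC2 at 64.1 against 65.9 RPKM, and DNAJC7, which passes clients between HSP70 and HSP90, at 58.0 against 57.2 RPKM. All of these 3 intervals included 1. DNAJC21, DNAJC24 and DNAJC17, which act in ribosome formation, translation and splicing, had ratios of 0.952 (0.816 to 1.11), 0.883 (0.717 to 1.09) and 1.12 (0.830 to 1.51). DNAJC22, a membrane protein, was at 7.14 against 7.60 RPKM (ratio 0.939, 0.777 to 1.13). DNAJC28, at 18 reads against 9, did not reach a mean RPKM of 1. The readthrough DNAJC25-GNG10 shares its start with DNAJC25, and the ratio was 1.05 (0.755 to 1.47) for the readthrough and 1.09 (0.834 to 1.41) for DNAJC25.

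The partners and regulators of these chaperones were examined from fixed lists, chosen with earlier results of these data known. They are to be read against the 13.8% of all genes with an interval above 1 and the 11.6% with one below. Genes with at least 1000 reads, which many of the listed genes have, had 16.8% above and 20.4% below. Of all genes 5.45% were called higher and 2.06% lower. Of the 10 nucleotide exchange factors of HSP70, 0 were called, 2 had an interval above 1 and 1 had one below, with a median log2 value of 0.08. BAG4 was at 12.2 against 13.9 RPKM with an interval that included 1. BAG3, which links HSP70 to autophagy and is a target of HSF1, was at 46.3 against 40.2 RPKM (ratio 1.15, 1.04 to 1.28), BAG6 at 50.3 against 45.3 RPKM (ratio 1.11, 1.03 to 1.20), and HYOU1, the HSP110 of the endoplasmic reticulum, at 32.4 against 39.9 RPKM (ratio 0.811, 0.745 to 0.884). Of the 21 co-chaperones of HSP90, 0 were called, 4 had an interval above 1 (19.0%) and 0 had one below, with a median of -0.01. Among those with at least 1000 reads the share above 1 was 23.5%, where genes of that depth had 16.8%. The 4 were the phosphatase PPP5C (ratio 1.16, 1.03 to 1.31), SGTA (1.15, 1.06 to 1.26), the ubiquitin ligase STUB1 (1.10, 1.01 to 1.21) and the p23 protein PTGES3 (1.08, 1.03 to 1.14). The 14 subunits of TRiC and prefoldin, which fold actin and tubulin, had a median of -0.03 (-0.07 after removal of the length trend and -0.06 with equal totals). Of their intervals 4 lay below 1 (CCT7, CCT2, CCT5 and CCT8) and 1 above (PFDN2). Among the 12 subunits with at least 1000 reads, 33.3% lay below 1 and 8.33% above, where genes of that depth had 20.4% and 16.8%.

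HSF1, the regulator of the heat shock response, was at 58.3 RPKM in HADH-S cells and 50.5 RPKM in control cells (ratio 1.15, 1.04 to 1.28). HSF2 was at 10.6 against 11.8 RPKM and HSBP1 at 22.5 against 21.6 RPKM, both with intervals that included 1. Of the 13 classical HSF1 targets among the members, 12 averaged 1 RPKM or more, and 0 of them were called. Over all genes 5.45% were called higher and 2.06% lower, and lists of this length can hold 0 calls at those shares, here and below. The median log2 value of the 12 targets was -0.03, with HSPB1 as the 1 interval above 1 and HSPA8, HSPH1, HSP90AB1 and HSP90AA1 as the 4 below. Among the 11 with at least 1000 reads, 9.09% had an interval above 1 and 36.4% one below, where genes of that depth had 16.8% and 20.4%. Of 10 HSF1 targets listed outside the symbol rule, 0 were called. BAG3 and the collagen chaperone SERPINH1 (ratio 1.11, 1.04 to 1.20) had intervals above 1, while AHSA1, which stimulates the ATPase of HSP90, had a ratio of 0.962 (0.903 to 1.02). The lists overlap: BAG3, AHSA1, CHORDC1, STIP1, CACYBP and FKBP4 were also counted above among the exchange factors or the co-chaperones of HSP90. HYOU1, named next, was counted among the exchange factors too. Among related chaperones outside the rule, intervals lay below 1 for SEC63 (ratio 0.742, 0.578 to 0.951), HYOU1, HSP90B1 (ratio 0.912, 0.884 to 0.941) and HSPA5 (ratio 0.927, 0.903 to 0.951). The mitochondrial HSP90 TRAP1 was at 93.2 against 87.4 RPKM, with an interval that included 1. Among 12 genes of mitochondrial import and proteolysis, 0 were called and YME1L1 alone had an interval that left out 1, at a ratio of 0.912 (0.849 to 0.979). HTRA2 and TIMM23 had ratios of 1.19 (0.968 to 1.47) and 0.945 (0.887 to 1.01). For scale, all 14 interferon-stimulated genes of the fixed list averaging 1 RPKM or more were called higher in the same libraries, where 5.45% of all genes were. Their median log2 value was 1.22, and the largest were OAS1, IFI6 and IFIT1, at log2 values of 2.37, 2.27 and 2.24. That list was chosen with earlier results of these data known, so its calls give a scale only.

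**Figure D4:**
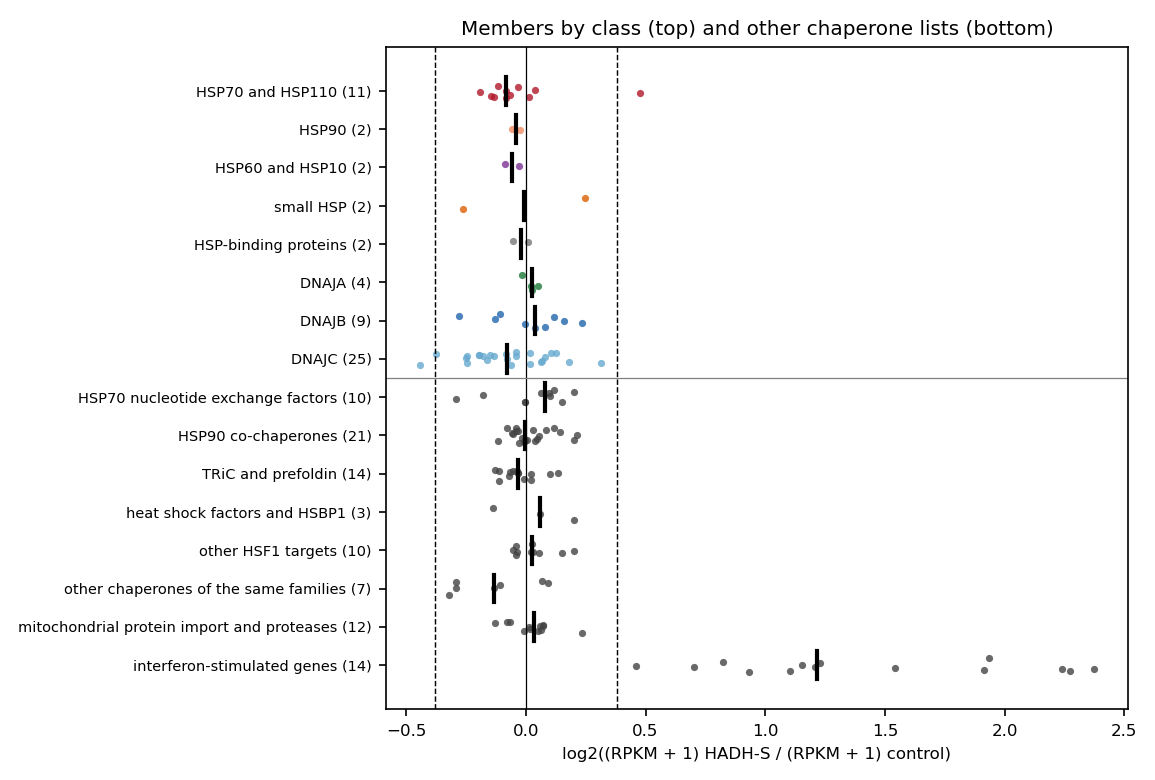
The log2((RPKM + 1) ratio) of HADH-S over control for genes averaging 1 RPKM or more, by class of member (above the grey line) and for the other fixed lists (below it), with the number of genes in brackets, medians as black bars and dashed lines at 1.3-fold. The class medians lie between -0.08 and 0.04, and the interferon-stimulated genes lie apart at a median of 1.22.

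The order of the most abundant members was the same in both libraries: HSP90AB1, HSPA8, HSP90AA1, HSPD1, HSPB1, HSPE1 and DNAJA1, from the highest down. The 5 highest held 71.0% of the summed RPKM of all members with HADH-S and 70.7% in the control. Without these 5, the summed ratio was 0.965 (0.949 to 0.982). At the other end, 7 rows did not reach a mean RPKM of 1: HSPA6, HSPA1L, HSPA12B, HSPE1-MOB4, HSPB9, DNAJB7 and DNAJC28. Each had 18 reads or fewer in either library, and no difference was detectable at this depth. Of 73 coding symbols that RefSeq lists under the rule, 11 were in neither table and were not evaluated: HSPA2, HSPB2, HSPB3, HSPB6, HSPB7, HSPB8, DNAJB8, DNAJB13, DNAJC5B, DNAJC5G and DNAJC15.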

How the data were processed

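RNA of RKO cells was measured in 1 library with HADH-S overexpression and 1 control library. The immunoprecipitation and input libraries were not used. For each RNA library the authors deposited RPKM values per gene, per the file headers. The submitters' processing notes name fastp 0.23.2, SAMtools 1.9, MACS2 1.4.2, ChIPseeker and GRCh38 for the whole series. How RNA reads were aligned and counted, and whether strand was used, is not given in the sources used here, so reads of overlapping or near-identical genes cannot be told apart.

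Multiplying RPKM by the transcript length of the row gave whole reads, within 0.01, for 100% of values. Totals were 6963608 reads over 12612 genes for HADH-S and 6773421 over 12501 for the control, and 3 reads correspond to 0.137 and 0.141 RPKM at the median length. A gene listed in 1 table only was set to 0 in the other.

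Log2 values used a pseudocount of 1 RPKM, which understates differences of low genes, and genes needed a mean of 1 RPKM. Ratios have exact conditional (Clopper-Pearson) 95% intervals, and ratios of sums approximate ones from the variance of the reads. These cover counting error only and treat reads as independent. Reads are not independent molecules, so the intervals may be too narrow even for counting error. With 1 library each no test was possible.

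Named were HADH, in each class the 3 members with the highest mean, the 3 with the largest absolute log2 value and every member called or with an interval leaving out 1, all members below the filter, and of each other list the 3 genes with the largest absolute log2 value. Other genes were named after their values were seen, and of the interferon list 3 called genes are given. A gene of the lists is not reported here. The members and lists were chosen with earlier results of these data known. Symbols equalled the reference name table for 62 of 64 rows. Coordinates and promoter windows are from RefSeq (GRCh38.p14). The steps were tested on simulated independent reads, with Python 3.11.15, scipy 1.17.1 and Biopython 1.88.

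As alternatives, the pseudocount was set to 0.1 or 5, the libraries were rescaled to equal 75th percentiles or to a median log2 value of 0, the filter was dropped or raised to 5 RPKM, the fold was set to 1.5 or 2, a trend with length was removed, and class sums were taken without their most abundant member. Rescaling to equal totals and the counts at 1000 reads or more were added after the data were seen.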

Additional observations from a re-analysis of the deposited data

How the results depend on the processing

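No paired analysis was possible because each condition has 1 library, and for the same reason none could be left out. The median log2 value of the members stayed negative under every alternative. HSPA12A was the member called higher, 1 in all, and DNAJC4 the member called lower. No member was called higher with a pseudocount of 5, at a mean RPKM of at least 5, or at folds of 1.5 and 2 (0 each), and 2 were without a filter, HSPA12A and DNAJC28. No member was called lower with a pseudocount of 5 or at folds of 1.5 and 2 (0 each). With a pseudocount of 0.1, each of the 3 rescalings and removal of the length trend, 2 were called lower, DNAJC4 and DNAJC12. Over all 10331 genes, 213 were called lower as reported, 397 with a pseudocount of 0.1 and 30 with one of 5. The rescalings gave 236 to 266 lower calls and removal of the length trend 242. Higher calls over all genes were 563 as reported and 149 with a pseudocount of 5. They were 722 of 13092 genes without a filter and 306 of 7886 at a mean of 5 RPKM or more. Intervals lay below 1 for 13 to 16 members and above 1 for 3 or 4 under the rescalings and filters. Of all genes 11.6% had an interval below 1 as reported and 12.9% to 14.4% under the rescalings. That share was 9.48% without a filter and 13.1% at a mean of 5 RPKM or more. The share of all genes above 1 was 13.8% as reported and was not taken under the alternatives. The summed ratio of all members moved from 0.976 to 0.966 with equal 75th percentiles and to 0.960 with equal totals. Equal totals gave 0.930 for HSP70 and HSP110 and 0.953 for HSP90. Without the most abundant member the ratio was 0.982 for HSP90, 0.940 for HSP60 and HSP10, and 0.828 for the class of HSPB1, where it rests on HSPB11 (IFT25), not a stress protein. The median of all genes, 0.01 as reported, was lowest at -0.01 with equal totals. Under a rescaling 5 members near 0 changed sign: the HSPA14 row of ENSG00000187522, HSPBP1, DNAJA1, DNAJC7 and DNAJC1. After removal of the length trend DNAJC10, listed with a transcript of 20144 nt, was at -0.04 in place of -0.15.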

Other observations

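Longer transcripts had lower log2 values in these libraries. Across the 10331 genes Spearman's rho between transcript length and log2 value was -0.19, and across the 57 members it was -0.14. Genes are not independent replicates, and all points share the same 2 libraries. Members with a transcript of up to 2700 nt had a median log2 value of -0.02 (29 genes, 16 of them below 0), and longer ones had -0.07 (28 genes, 19 below 0). For all genes split at the same length the medians were 0.05 and -0.01. The part of transcript length in the lower values of DNAJB14, DNAJC3, DNAJC10, DNAJC13 and DNAJC16 was not tested beyond the removal of a trend given above, after which DNAJB14 was at -0.25, DNAJC3 at -0.17, DNAJC13 at -0.12 and DNAJC16 at -0.21.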
